A study of Mus musculus with 51 samples.

Results

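The first day of differentiation of wild-type mouse embryonic stem cells (mESCs) was followed by comparing 4 libraries at day 0 with 3 libraries at day 1. These 7 libraries, of 51 in the series, were chosen by their labels: the wild-type cells in DMEM + LIF medium (replicates 1, 2, 3 and 4) and the wild-type cells at day 1 of differentiation (replicates 1, 2 and 4). The deposited log2 RPKM values cover 73 genes, 34 pluripotency and differentiation factors and 39 Hox genes, and every one of them is accounted for here. The study differentiated *Smchd1* wild-type and maternally deleted mESCs into neuromesodermal progenitors (NMPs), the bipotent cells of the posterior embryo that give rise to spinal cord and paraxial mesoderm, and sequenced polyA RNA along the way.

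All 7 libraries came from male C57BL/6/Cast F1 mESCs with the genotype Smchd1[fl/+], a floxed allele that was left intact, from the control arm of a cross in which Zp3-Cre, active in the growing oocyte, deletes the maternal allele. At day 0 the cells had been moved stepwise from 2i + LIF towards DMEM + LIF with serum, where leukaemia inhibitory factor (LIF) holds them in the pluripotent state. The last mixture that the study describes before day 0 still held some 2i + LIF. At day 1 they had spent their first day in N2B27, a serum-free medium without LIF, with FGF added. Serum and any remaining 2i were thus withdrawn together with LIF, and these changes were not tested apart. Replicates 1 to 3 carry the label of line 1 and replicate 4 that of line 2, whereas the study describes technical replicates of 2 lines, so p-values measure the spread between these libraries, part of which may be technical. The labels allow stranded and non-stranded kits without saying which library had which. In bulk RNA, fewer cells of a type and less RNA per cell cannot be told apart.

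Mouse ES cells hold pluripotency through POU5F1 (OCT4), SOX2 and NANOG, surrounded by a group of factors, among them KLF4, ESRRB, TFCP2L1 and NR0B1, that marks the naive state and is sustained by LIF and by low FGF/ERK signalling. FGF and the loss of LIF move cells towards a formative, epiblast-like state in which the naive group is switched off while *Pou5f1* and *Sox2* remain on. Brachyury (*T*, named *Tbra* in the data), *Cdx1*, *Cdx2* and *Nkx1-2* come on in the primitive streak and in NMPs under Wnt and FGF signals, and the Hox clusters open afterwards, from the anterior genes to the posterior ones.

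A pair of promoter stretches is shown because it belongs to genes the results turn on: *Nanog*, which carries a composite element for the OCT4 and SOX2 proteins, and *T*, whose fitted log2 RPKM difference was the largest in size of the 73 genes. Both sequences are from RefSeq (GRCm38.p6), lie on the plus strand and were taken from windows of 250 bases before to 50 bases after the start site; 45 of the 73 genes had such a window. In *Nanog*, capitals mark the composite element, TTTGCAT, then 1 base of any kind, then ACAA (chr6:122707354-122707485). In *T* they mark the reverse complement of CTTTGAA, a sequence of the type bound by TCF/LEF proteins (chr17:8434173-8434254).
Nanog: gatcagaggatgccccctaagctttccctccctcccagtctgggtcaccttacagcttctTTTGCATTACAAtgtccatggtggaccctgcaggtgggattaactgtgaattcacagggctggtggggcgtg
T: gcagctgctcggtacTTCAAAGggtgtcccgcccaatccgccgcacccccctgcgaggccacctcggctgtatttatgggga
Both strands were searched. The composite element was found in 0.0365% of 32851 promoter windows and, among the 45 genes, in *Nanog* alone. CTTTGAA was found in 5.14% of windows and in 4 of the 45 genes (*T*, *Dkk1*, *Hoxa11* and *Hoxd12*), which is a description of letters and not of bound sites.

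The depth of the libraries, worked out from the values themselves, ran from 5972845 to 31271389 reads at day 0 and from 3808794 to 11082087 reads at day 1. A gene without a read was not listed at 0 but at the value of 0.9 reads, so the same absence appeared at a higher log2 RPKM in a shallower library. *Hoxc8*, for which none of the 7 libraries held a read, stood at a mean log2 RPKM of -5.62 at day 0 and -4.21 at day 1, a difference of 1.41 set by depth alone. For that reason reads are given beside log2 RPKM wherever a gene was low. The labelled cell type was borne out by its markers: at day 0 the mean log2 RPKM was 8.75 for *Pou5f1*, 6.93 for *Sox2*, 6.35 for *Zfp42*, 6.05 for *Nanog* and 4.58 for *Esrrb*, and among 6 streak and NMP markers the highest was 0.12, for *Tbra*.

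Of the 73 genes, 3 were lower at day 1: *Tbra*, *Klf4* and *Nr0b1*, all of them factors (limma, Benjamini-Hochberg adjusted over all 73). That is 4.11% of the genes tested, and no gene was called higher (0%). At an unadjusted limma p under 0.05, 17 genes were lower and 4 higher. The 4 were *Nkx1-2*, *Dkk1*, *Hoxa2* and *Hoxa13*, all with few reads, where depth alone can raise a value. The call of 3 depended on single libraries: leaving out replicate 1 of day 0, replicate 1 of day 1 or replicate 4 of day 1 left 0 genes, and leaving out replicate 3 of day 0 or replicate 2 of day 1 left *Tbra* alone. Leaving out replicate 2 of day 0 gave 3 lower and 1 higher, and leaving out replicate 4 of day 0 gave 5 lower and 3 higher. Replicates of line 1 alone gave 0 calls, with differences of -2.65, -2.44 and -2.04 for *Tbra*, *Klf4* and *Nr0b1*, and centring each library on *Ctnnb1* and *Gsk3b*, which moved every difference by 0.15, also gave 0. In a separate reading by range, the log2 RPKM of the 2 days did not overlap for 13 genes lower at day 1 (17.8% of 73), all factors. Nor did it for 3 that were higher (4.11%). With reads scaled to the depth of the library, 16 of the 73 genes were lower without overlap and 1 was higher.

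Of the 20 pluripotency factors, 19 had a lower mean at day 1 and 2 passed the test, with a median difference of -1.32 on the log2 scale beside 0.05 over all 73 genes. The latter rests on Hox genes without reads, whose values rise as depth falls: with voom the medians were -1.28 and -0.56. Among the 24 genes over 1 RPKM the median was -1.10, but 23 of these are factors. Most of them are the pluripotency factors themselves, so that median is no separate background. In 11 of the 20 the 2 days did not overlap.

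**Figure D1:**
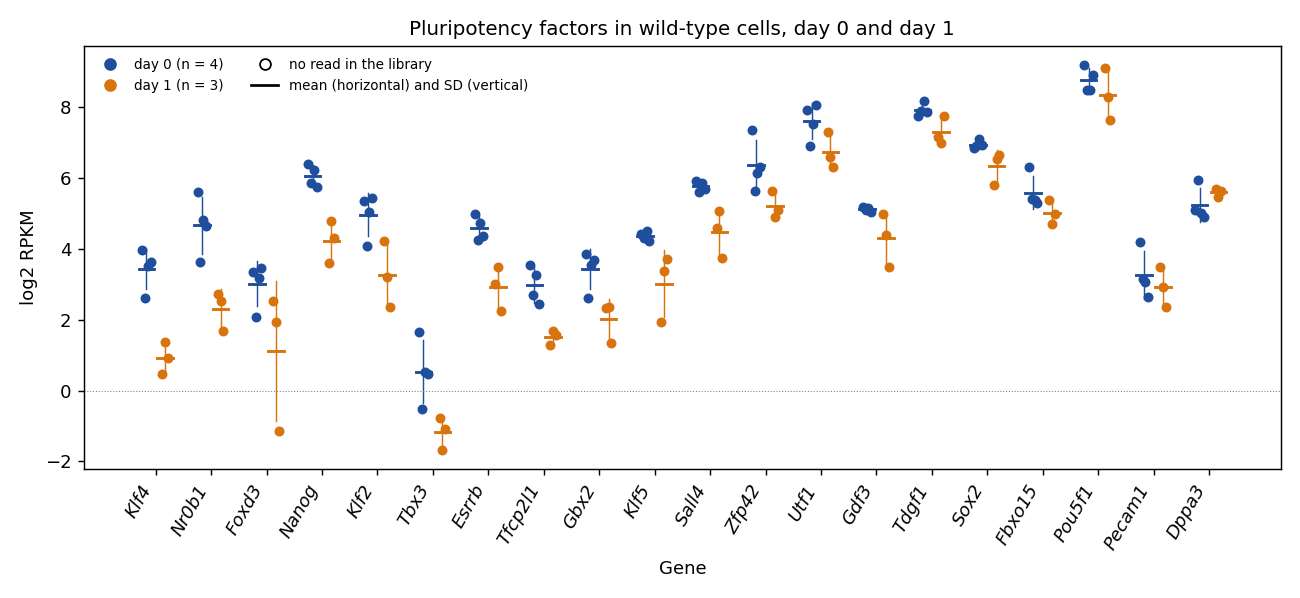
Log2 RPKM (vertical axis) of the 20 pluripotency factors (horizontal axis, ordered by the difference in means) in the 4 day 0 libraries and the 3 day 1 libraries of wild-type cells, each point a library, with the mean and SD. The day 1 points of *Klf4*, *Nr0b1* and *Nanog* sit below all their day 0 points, while those of *Pou5f1* and *Dppa3* overlap them.

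*Klf4*, a Krüppel-like factor of the naive network that responds to LIF and STAT3 signalling (chromosome 4, 55527143 to 55532466, minus strand, GRCm38.p6), stood at 3.97, 2.61, 3.51 and 3.61 log2 RPKM in day 0 replicates 1 to 4. At day 1 it stood at 0.48, 1.37 and 0.92 in replicates 1, 2 and 4. The groups did not overlap, and the highest day 1 library was below the lowest day 0 library. *Klf4* fell by 2.50 on the log2 scale, 5.67-fold (SE 0.59, limma adjusted p = 0.0218, n = 4 and 3).

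*Nr0b1*, which encodes DAX1, an orphan nuclear receptor of the naive network on the X chromosome (86191764 to 86195947, plus strand), stood at 5.58, 3.62, 4.80 and 4.63 log2 RPKM at day 0. At day 1 its values were 2.72, 2.52 and 1.68, again with no overlap. It fell by 2.35, or 5.10-fold (SE 0.62, limma adjusted p = 0.0401, n = 4 and 3).

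The other naive and stem cell state genes lay on the same side with less certainty. Of the 12 in this list, 11 had a lower mean at day 1, 2 were called (*Klf4* and *Nr0b1*), 7 did not overlap and the median difference was -1.44. The estrogen-related receptor *Esrrb* had a difference of -1.67 (SE 0.58, limma adjusted p = 0.105), with 4.24 as its lowest day 0 library and 3.49 as its highest day 1 library. *Klf2*, another Krüppel-like factor, differed by -1.70, and *Tbx3*, a T-box repressor, by -1.70, both with a limma adjusted p of 0.105. *Tfcp2l1*, a grainyhead-family regulator of the naive state, was among the tightest at day 1, at 1.29, 1.68 and 1.57 against 2.44 to 3.54 at day 0, a difference of -1.46. *Gbx2* and *Klf5*, a homeobox and a Krüppel-like factor, differed by -1.41 and -1.34 without overlap. *Zfp42* (REX1), a widely used marker of naive cells, differed by -1.15 and met the day 0 range at the value 5.63. *Fbxo15*, an F-box protein gene used as an ES cell reporter, differed by -0.57, and *Pecam1*, an adhesion molecule of endothelium that naive ES cells also express, by -0.34. *Dppa3* (STELLA), a maternal factor that protects DNA methylation, was the one member of the list with a higher mean at day 1, by 0.35 (SE 0.57, limma adjusted p = 0.693).

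The core of the network was uneven. *Nanog* stood at 6.38, 5.84, 6.23 and 5.73 log2 RPKM at day 0 and at 3.60, 4.76 and 4.29 at day 1. All 3 day 1 libraries lay below the day 0 libraries, but the difference of -1.83 (3.55-fold, SE 0.57) missed the threshold (limma adjusted p = 0.0704). *Pou5f1*, at 9.17, 8.48, 8.47 and 8.89 at day 0, read 9.09, 8.26 and 7.63 at day 1. Its groups overlapped, with a difference of -0.43 (SE 0.59, limma adjusted p = 0.646). *Sox2* lay between 6.83 and 7.10 at day 0 and at 5.80, 6.52 and 6.64 at day 1; every day 1 library was lower, by a mean of 0.61 on the log2 scale that was near its SE of 0.56 (limma adjusted p = 0.469).

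The 5 remaining pluripotency factors all had lower means, with a median of -0.88 and no call. *Foxd3*, a forkhead factor of the exit from naive pluripotency, differed by -1.90 (SE 0.79, limma adjusted p = 0.141), and that value leaned on replicate 4 of day 1, at -1.15 (4 reads), where replicates 1 and 2 read 2.51 and 1.94. *Sall4*, a zinc finger partner of OCT4, differed by -1.30 with no overlap. *Utf1*, *Gdf3* and *Tdgf1* (a chromatin factor, a TGF-beta ligand and the Nodal co-receptor CRIPTO) differed by -0.88, -0.82 and -0.62. The days did not overlap for *Gdf3* and overlapped for *Utf1* and *Tdgf1*.

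The 14 differentiation and Wnt factors were mostly low, and 11 had a lower mean at day 1, with a median difference of -1.05 and 1 call. At day 0, 5 of them had a mean above 1 RPKM, and at day 1 there were 3. Replicates 1, 2 and 4 of day 1 held no read for 3, 4 and 10 of all 34 factors, whereas day 0 libraries lacked a read for at most 1.

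**Figure D2:**
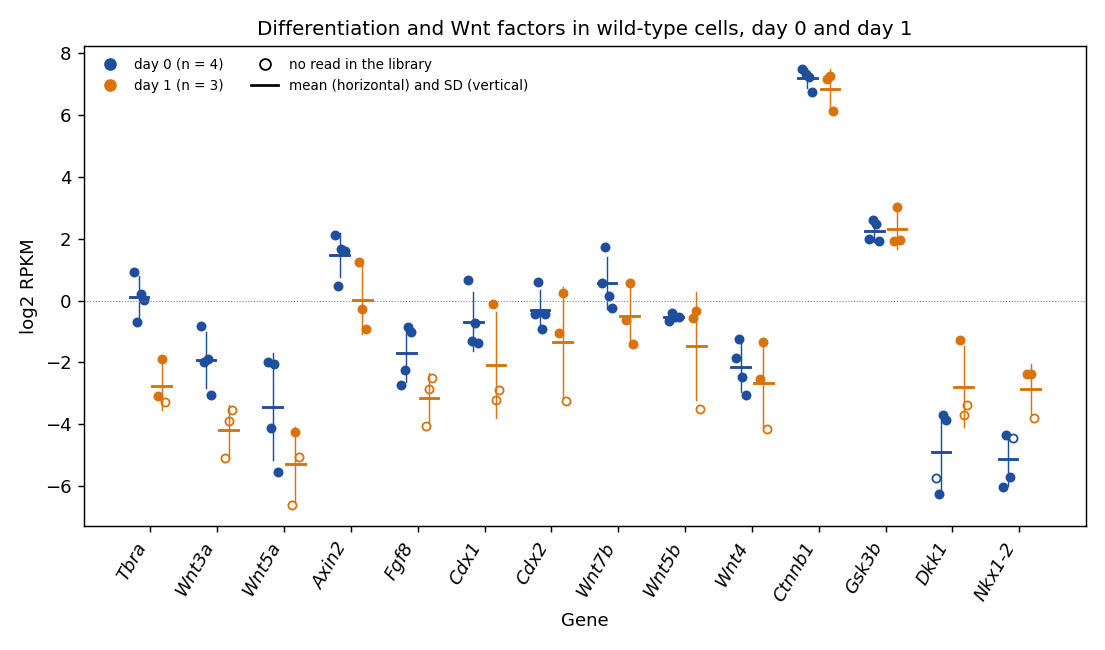
Log2 RPKM (vertical axis) of the 14 differentiation and Wnt factors (horizontal axis, ordered by the difference in means) in the 4 day 0 and 3 day 1 libraries, with the mean and SD. Open points are libraries without a read for the gene, whose height is set by depth; all 3 day 1 points of *Wnt3a* and *Fgf8* are open.

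*Tbra*, the T-box factor of the primitive streak and of NMPs (chromosome 17, 8434423 to 8442496, plus strand), held 87, 45, 43 and 14 reads in the day 0 libraries. In the day 1 libraries it held 3, 3 and 0 reads. Its log2 RPKM was 0.92, -0.69, 0.22 and 0.02 at day 0 and -3.10, -1.89 and -3.29 at day 1, with no overlap. *Tbra* fell by 2.88 on the log2 scale, 7.35-fold (SE 0.62, limma adjusted p = 0.0197). In pooled RPM (reads scaled to the depth of the library) its level at day 1 was 0.118 of that at day 0 (95% exact interval 0.0427 to 0.261, counting error only). *Tbra* was thus at a low level in the LIF cultures and at or near the limit of detection at day 1.

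*Nkx1-2*, a homeobox gene of the posterior epiblast and NMPs, was the posterior factor with a higher mean at day 1. It held 1, 5, 1 and 0 reads at day 0 and 7, 3 and 0 at day 1. Its difference of 2.28 (SE 0.65, limma adjusted p = 0.0521) missed the threshold, and was 0.94 (limma adjusted p = 0.221) with low values raised to the value of 0 reads in the shallowest library. Its log2 RPKM did not overlap between days, but its RPM did, because replicate 4 of day 1 had no read. The caudal homeobox genes *Cdx1* and *Cdx2* differed by -1.39 (limma adjusted p = 0.196) and -1.05 (limma adjusted p = 0.328), with groups that overlapped. At day 1 *Cdx1* had 18, 0 and 0 reads and *Cdx2* had 12, 13 and 0. Over these 4 posterior factors the median difference was -1.22, with 3 of 4 lower and 1 called. It was -0.54 without replicate 4 of day 1, which had no read for any of the 4, and -0.30 on the log2(RPKM + 1) scale.

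Among the 7 secreted signals, 6 had a lower mean at day 1, none was called and the median difference was -1.05. That median was -0.59 without replicate 4 of day 1, -1.58 without replicate 2 of day 1 and -0.19 on the log2(RPKM + 1) scale. *Wnt3a*, the canonical Wnt ligand of the streak and tailbud, held 31, 22, 12 and 2 reads at day 0 and none in any day 1 library. Pooled over the group, 3 reads as the limit of a count of 0 put *Wnt3a* at least 6.02-fold lower at day 1. That bound covers counting error at day 1 only and leaves out the spread between libraries. *Fgf8*, the FGF ligand of the streak, held 4, 9, 12 and 4 reads at day 0 and none at day 1. The same bound put it at least 2.61-fold lower. The fitted differences, -2.24 (limma adjusted p = 0.0521) for *Wnt3a* and -1.43 (limma adjusted p = 0.141) for *Fgf8*, depend on the value given to 0 reads. With both genes at their bounds the median pooled log2 ratio over the 7 signals was -1.38.

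The ligand *Wnt5a*, which signals mainly through non-canonical routes, had 84 reads over the day 0 libraries and 2 over the day 1 libraries, a ratio of 0.0883 (95% exact interval 0.0105 to 0.329, counting error only). Its day 0 libraries were themselves far apart, with 39, 14, 30 and 1 reads, and the fitted difference of -1.86 had a limma adjusted p of 0.141. *Wnt7b*, *Wnt5b* and *Wnt4* differed by -1.05, -0.93 and -0.52 and overlapped between days. *Dkk1*, a secreted inhibitor of Wnt signalling, was the one signal with a higher mean, by 2.10 (SE 0.78, limma adjusted p = 0.105), or by 0.69 with low values raised in that way. All of its 11 day 1 reads came from replicate 1, and replicates 2 and 4 had none, as against 0, 1, 3 and 1 reads at day 0.

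Of the 3 intracellular Wnt genes, *Axin2*, a feedback inhibitor and common readout of the pathway, differed by -1.45 (SE 0.66, limma adjusted p = 0.141). It read 2.13, 0.46, 1.68 and 1.59 at day 0 and 1.23, -0.27 and -0.93 at day 1, so replicate 1 of day 1 lay inside the day 0 range. *Ctnnb1* (beta-catenin) and *Gsk3b*, the kinase that marks it for destruction, differed by -0.35 and 0.05, with limma adjusted p of 0.70 and 0.929.

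The same 73 genes were tested with the recovered reads in place of log2 RPKM (limma-voom, chosen after the data had been seen), which weights a value by the reads behind it. Of 67 genes with any read, 14 were called lower (20.9%) and 1 higher (1.49%). The 14 held 9 pluripotency factors (*Nanog*, *Klf2*, *Klf4*, *Klf5*, *Esrrb*, *Zfp42*, *Tfcp2l1*, *Nr0b1* and *Sall4*), 4 differentiation factors (*Tbra*, *Wnt3a*, *Wnt5a* and *Fgf8*) and *Hoxb9*. The gene called higher was *Hoxa13*. Under this fit *Nanog* differed by -1.91 (voom adjusted p = 0.0021), *Klf4* by -2.48 (0.0038), *Nr0b1* by -2.23 (0.0038) and *Tbra* by -3.00 (0.0091). *Pou5f1* and *Sox2* again missed the threshold, at -0.33 and -0.66 with voom adjusted p of 0.496 and 0.188.

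The 39 Hox genes were close to silent on both days. Together they held 694 reads at day 0 and 133 reads at day 1, or 9.50 and 6.75 RPM. Per library the sum was 14.1, 8.09, 7.39 and 7.20 RPM at day 0 and 6.68, 4.58 and 9.71 at day 1, and the days overlapped. No read was found for 11 to 28 of the 39 genes in a day 0 library or for 27 to 32 in a day 1 library, and 6 genes (*Hoxc5*, *Hoxa6*, *Hoxc6*, *Hoxc8*, *Hoxa9* and *Hoxc9*) had none in any of the 7.

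No Hox gene was called by limma in either direction, with 1 lower and 2 higher at an unadjusted p under 0.05. The mean log2 RPKM of 33 of the 39 was higher at day 1, with a median difference of 0.69, and the 6 genes without any read each differed by 1.41. With all values below the value of 0 reads in the shallowest library raised to it, the median difference was 0.00. Of these 33 genes, 20 had a lower pooled RPM at day 1. The anterior to central genes Hox1–9 (27 genes) had a median difference of 0.80 and the posterior genes Hox10–13 (12 genes) one of 0.24. By pooled RPM, 15 of the Hox1–9 genes were lower and 6 higher at day 1, and 11 of the Hox10–13 genes were lower and 1 higher. These counts include 6 and 8 genes with reads at day 0 and none at day 1, at the lower depth of the day 1 libraries. With voom, which did not remove the effect of depth where reads were few, the medians were 0.20 and -0.03.

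**Figure D3:**
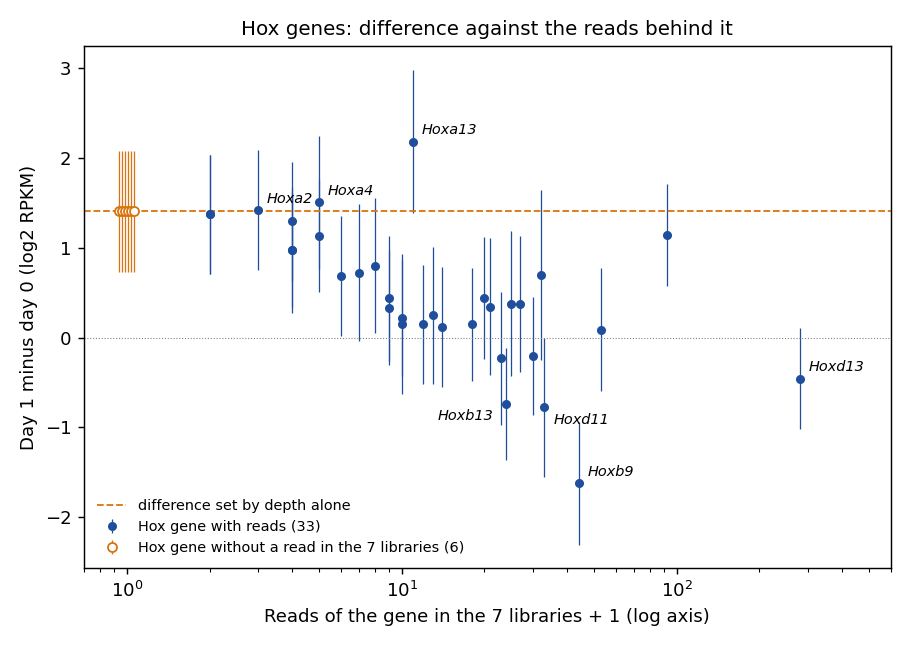
Difference in mean log2 RPKM between day 1 and day 0 (vertical axis, bars are SE) of the 39 Hox genes against their reads over the 7 libraries plus 1 (log axis). Genes with few reads gather at the dashed line at 1.41, the difference of the 6 genes without reads, and *Hoxd13*, with the most reads, lies at -0.46.

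*Hoxd13*, a posterior gene of the limb and genital region, was the one Hox gene above 1 RPKM in either group mean. It held 72, 104, 45 and 15 reads at day 0 and 23, 8 and 12 at day 1, and read 0.55, 0.42, 0.18 and 0.02 log2 RPKM at day 0. At day 1 it stood at -0.26, -0.58 and 0.34, so the days overlapped, with a difference of -0.46 (SE 0.56, limma adjusted p = 0.614).

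The largest negative difference among Hox genes was that of *Hoxb9*, a thoracic-level gene, with 23, 14, 3 and 3 reads at day 0 and none at day 1. By the bound used for *Wnt3a*, which leaves out the spread between libraries, *Hoxb9* was at least 3.87-fold lower. Replicate 3 of day 0, at 0.19 RPM, lay close to the day 1 limit of 0.15 RPM. The fitted difference of *Hoxb9*, -1.62, had a limma adjusted p of 0.141. *Hoxb13* had 7, 12, 3 and 1 reads at day 0 and none at day 1. By that bound it was at least 2.07-fold lower (limma adjusted p = 0.425). *Hoxd11* had 30 reads over the day 0 libraries and 2 over day 1, a ratio of 0.247 (95% exact interval 0.0286 to 0.974, counting error only) and a limma adjusted p of 0.492. These are central and posterior Hox genes at a few reads per library.

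*Hoxa13*, *Hoxa4* and *Hoxa2* had the largest positive differences, 2.18, 1.504 and 1.42. *Hoxa13* had 3, 0, 0 and 0 reads at day 0 and 2, 0 and 5 at day 1. *Hoxa4* held 2 reads over each day and *Hoxa2* 1 over each day, at or under the limit of 3 reads, so no fold is given for either.

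The maternal null cells passed through the same first day. A difference between genotypes in this change was called for none of the 73 genes (0%, limma, smallest adjusted p = 0.899). Its SE on the log2 scale was 3.45 for *Pou5f1*, 2.28 for *Esrrb* and 0.96 for *Klf4*, so differences could be missed. No gene had an unadjusted limma p under 0.05 either, and limma-voom called none with a smallest unadjusted p of 0.0619. In all, 2 maternal null libraries stood apart: replicate 3 of day 0 had 873.5 RPM on the factors, where replicates 1 and 2 had 4934 and 3847, and replicate 4 of day 1 had no read for 18 of the 34 factors, *Pou5f1* among them. Without replicate 3 of day 0 or without replicate 4 of day 1, 0 genes were called, with 0 and 1 at an unadjusted p under 0.05. No fit left out both. In the maternal null cells *Klf4*, *Nr0b1* and *Tbra* had differences of -2.42, -3.18 and -2.71 with all libraries, and of -3.09, -1.76 and -2.42 without both of these libraries.

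The second day was spent in the same medium, in wells that the study had seeded more thinly than those for days 0 and 1. No gene was called for the difference between the day 0 to day 1 step and the day 1 to day 2 step (0%, limma, smallest adjusted p = 0.965), with 1 gene at an unadjusted p under 0.05. That gene was *Tbra*, where the first step was -2.88, the second 0.20 and their difference -3.08 (limma adjusted p = 0.965). Both steps share the day 1 libraries, which the fit takes into account. Replicate 4 of day 2 was very shallow and its 2 sets of values did not match in depth, and replicate 3 of day 2 had 616.7 RPM on the factors against 2503 and 2506 in replicates 1 and 2. Without replicate 4 of day 2 no gene was called and 12 had an unadjusted p under 0.05, and without replicate 3 no gene was called and 2 had one.

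**Figure D4:**
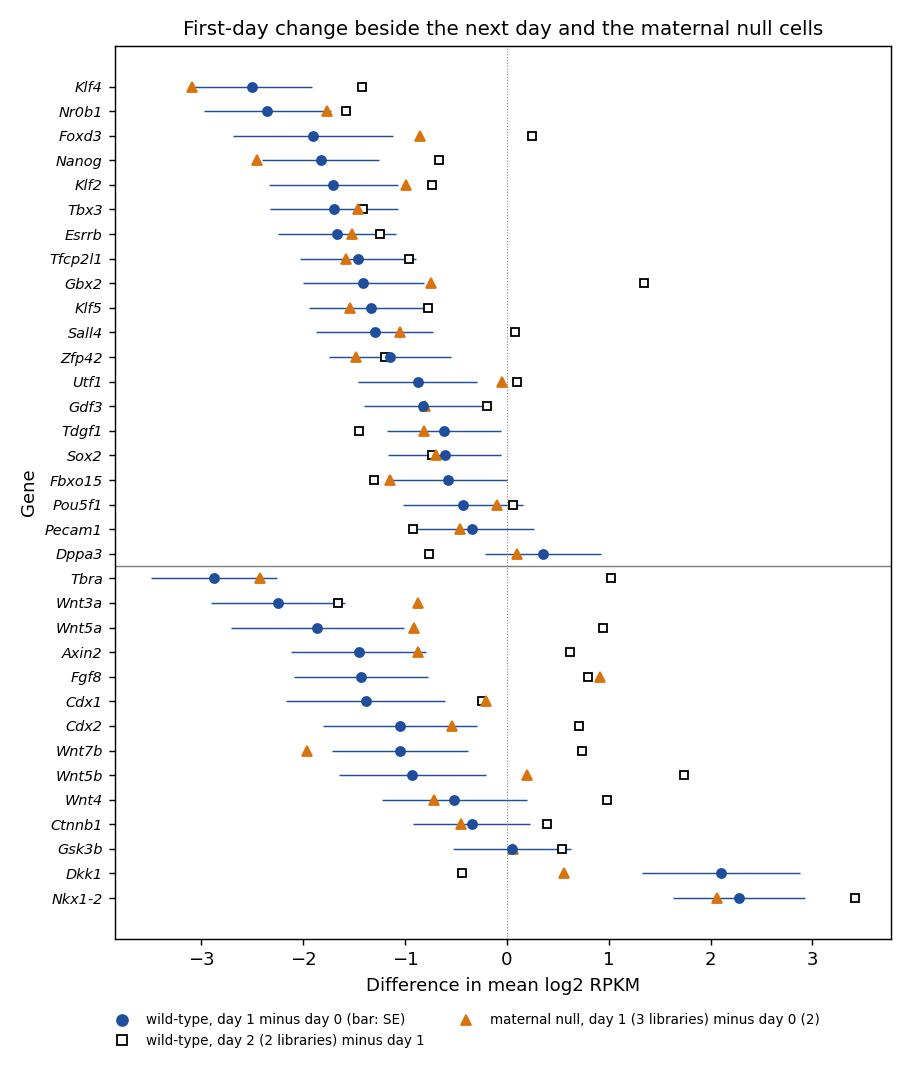
Difference in mean log2 RPKM (horizontal axis) of the 34 factors for the first day in wild-type cells (circles, bars are SE), for the day after it with replicates 1 and 2 of day 2 (squares) and for the first day in maternal null cells without the pair of libraries that stood apart (triangles). *Klf4* and *Nr0b1* lie below 0 in all 3 sets, at -2.50, -1.43 and -3.09 and at -2.35, -1.58 and -1.76, whereas *Tbra* lies at 1.02 in the second step.

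Over the second day the 20 pluripotency factors had a median difference of -1.11 without the shallow replicate 4, with 19 of 20 lower. Over all 73 genes the median was then -1.09, with 55 lower, so the list stood near the whole. The 39 Hox genes, most with few reads, had a median of -1.55, and the 14 differentiation and Wnt factors one of 0.28. Without replicate 3 as well, the median was -0.77 for the 20 factors, with 15 lower, and -0.96 for all 73 genes, with 53 lower. *Pou5f1* turned with that choice, from -1.11 to 0.06, so its second step rested on replicate 3 of day 2. *Sox2* went from -1.33 to -0.73 and *Nanog* from -0.88 to -0.67, and both stayed lower. *Klf4* and *Nr0b1* had differences of -1.65 and -1.99 without replicate 4 and of -1.43 and -1.58 without both. *Gbx2* had a difference of 0.96 without replicate 4 and 1.34 without both, against -1.41 over the first day, and the difference of its steps was not called. *Nkx1-2* had positive second-step differences of 1.94 and 3.42.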

How the data were processed

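The authors trimmed reads with TrimGalore 0.4.4, mapped them to GRCm38.p6 with hisat2 2.0.5 and quantified them in SeqMonk, and deposited log2 RPKM values corrected for library size and transcript length. Columns were assigned by label. The deposited raw read totals of the time course were not used, since most headers there do not name their library. The members and lists were chosen with earlier results of these data known.

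With GENCODE vM21 exon lengths (coordinates equal for 73 of 73 genes), the lowest Hox value of a library was taken as 0.9 reads, and 385 of 385 values under 200 reads became whole within 0.05. Depth per library is given with the results. It limits precision to counting error at low genes.

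Groups were compared with limma 3.58.1 in R 4.3.3, one fit over 73 genes, Benjamini-Hochberg at 0.05. An exact permutation test of 4 against 3 libraries cannot go below 0.0571. Named genes were all 34 factors, Hox genes called or above 1 RPKM, and the 3 largest positive and negative Hox differences; 1 item is not reported here. Alternatives were pseudocounts of 1 and 0.1, centring on *Ctnnb1* and *Gsk3b*, genes over 1 RPKM, a replicate block, line 1 only, each library left out, a fit over the time course, limma with trend, both tables fitted separately and, chosen after seeing the data, limma-voom and raised low values. Plots used matplotlib 3.10.9.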

Additional observations from a re-analysis of the deposited data

Results flagged for a closer look

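One value of 41 named genes tested in the 4 day 0 libraries lay far from the others of its group. *Fbxo15* in replicate 1 stood at 6.29 log2 RPKM, while the others lay between 5.28 and 5.39, and the gap took 0.891 of the range, past the limit of Dixon's test for 4 values. Chance flags about 1 in 20 groups. The cause was not tested.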

How the results depend on the processing

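The count of 3 genes lower at day 1, all factors, became 6 with log2(RPKM + 1), 12 with log2(RPKM + 0.1) and with the tables fitted separately, 13 among genes over 1 RPKM and with limma's trend, and 14 (13 factors and 1 Hox gene) with voom. It became 0 after centring on *Ctnnb1* and *Gsk3b*, which moved every difference by 0.15, 0 in line 1 alone and 0 with the replicate block; leaving out single libraries gave 0 to 5. The cause was not tested. Whether the replicate numbers pair the libraries was not settled. For replicates 1, 2 and 4 the deviations of same-numbered libraries correlated at 0.03, 0.51 and -0.19 over the 34 factors. Over all 73 genes they correlated at 0.0051, 0.21 and 0.26. These are too few pairs to decide, so the result of the replicate block stands beside that of the main test. Genes called higher, 0 in the main test, were 1 with trend (a factor), 2 with separate tables (both factors) and 1 with voom (a Hox gene), and 0 to 3 with a library left out (0 to 2 factors, 0 to 1 Hox genes; no Hox gene lower in any of these).

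Median differences moved for all 73 genes (to -1.10 among genes over 1 RPKM, -0.23 with the replicate block, -0.56 with voom, -0.31 with raised low values, -0.31 to -0.0036 with a library left out), for posterior factors (-0.30 with log2(RPKM + 1), -1.78 to -0.54 with a library left out), for secreted signals (-0.19 with log2(RPKM + 1), -1.58 to -0.59 with a library left out) and for Hox1–9 (0.0285 with log2(RPKM + 1) and 0.00 with raised low values). The sign turned for *Wnt4* (0.22), *Wnt5b* (0.082) and *Ctnnb1* (0.015) without replicate 4 of day 1, for *Wnt5b* in line 1 alone (0.085), and for *Gsk3b* without replicate 1 (-0.038) or 4 of day 0 (-0.053), without replicate 2 of day 1 (-0.31) and with voom (-0.013). With a library left out, *Wnt4* ranged from -1.19, *Wnt5b* from -1.49 and *Gsk3b* up to 0.24. *Klf4*, *Nr0b1* and *Tbra* stayed lower in 18 of 18, 18 of 18 and 17 of 17 alternatives and were called in 10, 8 and 11. Depth limits all Hox genes and most secreted signals.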
